A study of Mus musculus with 33 samples.

Results

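Oocytes at the non-surrounded nucleolus (NSN) stage were compared between *Nlrp5* +/- and *Nlrp5* +/+ female mice. These were 12 of the 33 oocytes sequenced, 8 of them *Nlrp5* +/- (oocytes 45, 48, 53, 54, 56, 62, 63 and 64) and 4 *Nlrp5* +/+ (oocytes 70, 78, 79 and 87). Members were chosen by the genotype in the sample labels and by the stage assigned to each oocyte when the data were first analysed. *Nlrp5* +/- oocyte 61 was left out because the sources conflict on its stage. All females were 3 weeks old and of the C57BL6/Babr background. The *Nlrp5* +/- females carry 1 allele with a 5 bp deletion made with CRISPR/Cas9 in zygotes, which shifts the reading frame and brings in an early stop codon. They were littermates of the *Nlrp5* -/- females, whereas the *Nlrp5* +/+ females usually came from the colony in which the line was started. The comparison asks what the loss of a single functional copy of *Nlrp5* does to the messenger RNA of an immature oocyte.

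A germinal vesicle (GV) oocyte is arrested in the prophase of meiosis and stores messenger RNA and protein for the early embryo. In the NSN stage chromatin is diffuse and transcription still runs, and in the later surrounded nucleolus (SN) stage chromatin rings the nucleolus and transcription has largely stopped. *Nlrp5* encodes a core protein of the subcortical maternal complex, which also holds OOEP, TLE6 and KHDC3 and is needed for development past the first cleavages. Messenger RNA with an early stop codon is usually degraded by nonsense-mediated decay, so a heterozygote can hold less of the transcript than a wild-type oocyte.

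Each library came from 1 oocyte, and the labels name no mouse, so it is not known how many females stand behind each genotype. All oocytes of a genotype were therefore taken as 1 sample, no test of a difference between genotypes was run, and every SD below describes the spread between oocytes only. The libraries also split by their sequencing index. *Nlrp5* +/- oocytes carried the first index sequence TAGGCATG (45 and 48), CTCTCTAC (53, 54 and 56) or CGAGGCTG (62, 63 and 64), and *Nlrp5* +/+ oocytes carried AAGAGGCA (70), GTAGAGGA (78 and 79) or GCTCATGA (87). No first index occurs in both genotypes, so genotype, colony and index set cannot be told apart in any difference given here. Counts on genes ran from 5040968 to 11152481 in *Nlrp5* +/- and from 7661904 to 11048982 in *Nlrp5* +/+ libraries. Counts were divided by a size factor for each library, and these normalised counts are the level used throughout unless CPM, counts scaled to a common library total, are named.

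The stage labels were checked against the markers from which the study had assigned them, so the check is no finding. The score is the mean log2(normalised count + 1) of 105 markers higher in NSN oocytes minus that of 59 markers higher in SN oocytes. With all 33 oocytes scaled together, the 12 NSN oocytes scored between −3.23 and −2.40, and the 13 SN oocytes of these genotypes between −5.27 and −3.61, without overlap. Within the NSN stage the genotypes were not placed alike. Scores of the *Nlrp5* +/- oocytes ran from −3.14 to −2.40 with a median of −2.76, and *Nlrp5* +/+ oocytes 70, 78, 79 and 87 stood at −3.23, −3.12, −2.86 and −2.97. The *Nlrp5* +/+ oocytes thus lay nearer to the SN side by 0.30 on average, and the part of this in the differences below was not tested. Of the NSN markers 80 of 105 were higher in *Nlrp5* +/- oocytes, with a median log2 difference of 0.21, and of the SN markers 41 of 59 were lower, with a median of −0.10. Levels of oocyte genes were high in every library: the 10 oocyte markers, among them *Gdf9* and the zona pellucida genes, summed to between 20153 and 30450 CPM.

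Most transcripts differed little between the genotypes. Of 13677 genes with an abundance of at least 10 (the mean of the 2 genotype means of the normalised count), 88.6% differed by less than 1.5-fold, and the median absolute log2 difference was 0.24. Differences are given as log2(mean + 1) of *Nlrp5* +/- minus that of *Nlrp5* +/+. At least 2-fold higher in *Nlrp5* +/- were 178 genes (1.3% of those measured) and at least 2-fold lower were 160 (1.17%), in all 2.47%. Such genes were mostly low, with a median abundance of 19.3 for the higher and 17.8 for the lower genes, against 180 for all genes measured. Among the 8469 genes with an abundance of at least 100, only 10 were 2-fold higher and 9 were 2-fold lower. Pairs of oocytes from different genotypes correlated with a mean Pearson's r of 0.91 across genes, pairs within *Nlrp5* +/- with 0.906 and pairs within *Nlrp5* +/+ with 0.914. Such a correlation is set mostly by how far genes differ in level from one another, so it can say little about a difference in few genes. Without *Nlrp5* +/+ oocyte 87 the numbers of 2-fold genes were 338 and 246, and oocyte 87 is the only library whose removal moved them by more than 1.5 times.

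*Nlrp5* itself, on chromosome 7 from 23385889 to 23441922 on the plus strand (GRCm38), was lower in *Nlrp5* +/- oocytes. The 8 *Nlrp5* +/- oocytes had a lowest normalised count of 6653, a median of 8547 and a highest of 13475. The *Nlrp5* +/+ oocytes had 10637 (70), 17354 (78), 28952 (79) and 13810 (87). The ranges overlapped, since oocytes 62 and 64 lay above oocyte 70, and 6 of the 8 *Nlrp5* +/- oocytes lay below every *Nlrp5* +/+ oocyte. Means were 9235 ± 2338 (SD, n = 8) and 17688 ± 7995 (SD, n = 4), so that *Nlrp5* +/- oocytes held 52.2% of the *Nlrp5* +/+ level, a log2 difference of −0.94. Most of the spread was in *Nlrp5* +/+, where oocyte 79 held 28952 and oocyte 70 held 10637. Without oocyte 79 the log2 difference was −0.59, and without oocyte 70 it was −1.12. Means by the first index were 8500, 8342 and 10618 in *Nlrp5* +/- and 10637, 23153 and 13810 in *Nlrp5* +/+ oocytes, so that each *Nlrp5* +/- index mean lay below each *Nlrp5* +/+ one, the closest by a narrow margin. In pooled counts the level was 1216 CPM (exact Poisson 95% interval 1207 to 1225) against 2403 CPM (2387 to 2419), and these intervals cover counting error only.

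The same genotypes gave a similar value for *Nlrp5* in oocytes that did not enter the comparison. In SN oocytes the 7 *Nlrp5* +/- libraries ranged from 5443 to 10313 with a median of 6658, and the 6 *Nlrp5* +/+ libraries from 10691 to 15720 with a median of 11868. There the genotypes did not overlap, the *Nlrp5* +/- mean was 61.8% of the *Nlrp5* +/+ mean, and the log2 difference was −0.69. The spread in *Nlrp5* +/+ was also narrower, with an SD of 1784 in SN against 7995 in NSN oocytes. In the plot of values by oocyte this is seen as a tight *Nlrp5* +/+ cluster in SN and a scattered one in NSN oocytes.

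**Figure D1:**
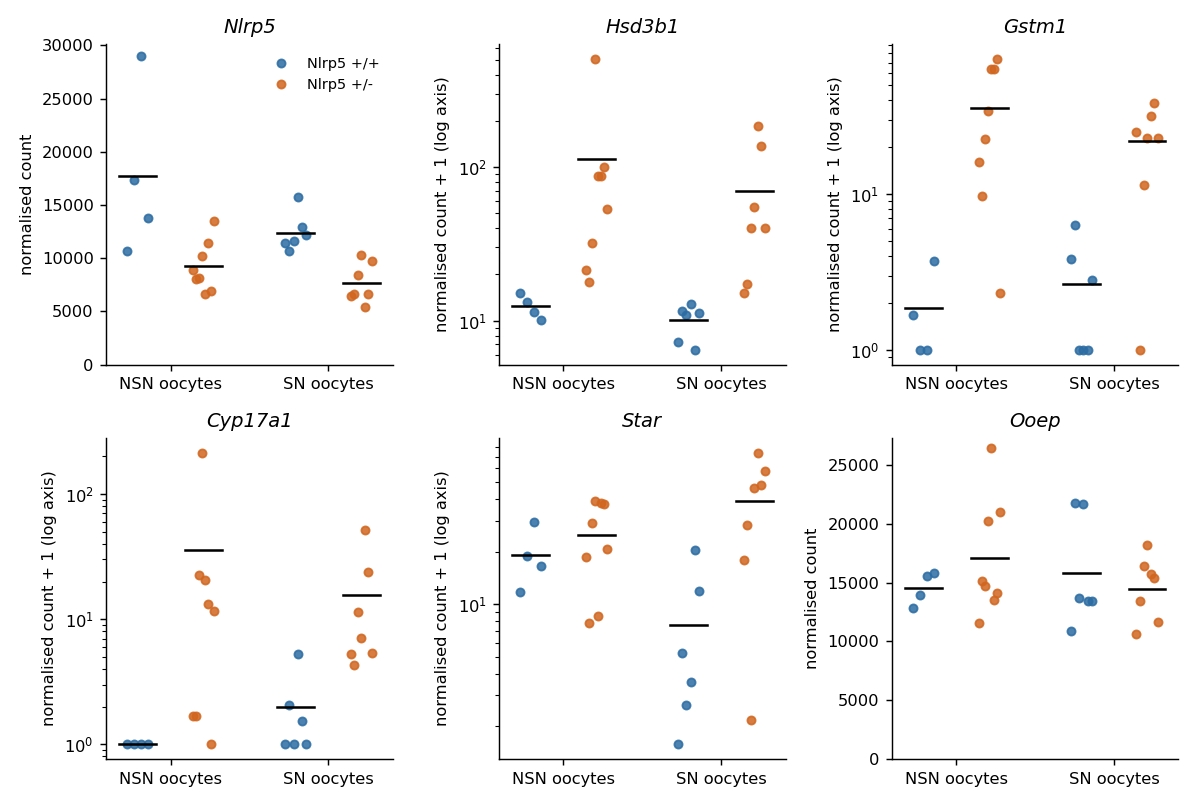
Normalised counts of 6 genes in each NSN and SN oocyte (points; black bars are means over oocytes), *Nlrp5* +/+ in blue and *Nlrp5* +/- in orange. *Nlrp5* and *Ooep* are on a linear axis from 0, the other genes on a log axis after adding 1. *Nlrp5* was lower in *Nlrp5* +/-, *Hsd3b1* was higher in every *Nlrp5* +/- oocyte at both stages, and *Ooep* overlapped throughout.

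None of the other 6 genes of the complex reached a 2-fold difference, and in each the genotypes overlapped. *Ooep*, whose product anchors the core complex together with NLRP5 and TLE6, had 17115 ± 5014 (SD, n = 8) in *Nlrp5* +/- and 14552 ± 1418 (SD, n = 4) in *Nlrp5* +/+ oocytes, a log2 difference of 0.23, or 0.12 without oocyte 56. *Tle6* had a log2 difference of 0.41, or 0.64 without oocyte 87, and *Khdc3* one of 0.38. *Khdc3* overlapped only narrowly, from 7695 to 14501 in *Nlrp5* +/- and from 6432 to 8006 in *Nlrp5* +/+ oocytes. *Padi6*, which encodes a protein of the cytoplasmic lattices, differed by −0.14, or −0.056 without oocyte 79 and −0.25 without oocyte 70, and *Zbed3* by −0.06, a sign that turned with pooled counts, without oocyte 87 or with oocyte 61 added. *Nlrp2*, a further NLRP gene of the oocyte, was at 3248 ± 466 against 4180 ± 405, a log2 difference of −0.36. In SN oocytes the log2 differences of these 6 genes lay between −0.13 and 0.15.

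The deletion leaves a transcript open to nonsense-mediated decay, and the genes of that machinery were measured as a list. Of 16 measured members 0 were 2-fold higher and 0 were 2-fold lower, with a median log2 difference of −0.21, against 0.03 for all genes measured. *Upf1*, the central helicase of the pathway, differed by −0.56, *Smg1*, the kinase that acts on it, by −0.73, and *Eif4a3* of the exon junction complex by 0.35. In SN oocytes the median of the list was 0.00, with −0.12 for *Upf1* and −0.03 for *Smg1*. Among 9 measured *Nlrp* paralogs of the oocyte 0 differed by 2-fold, and the values ran from −0.42 for *Nlrp4c* to 0.46 for *Nlrp4e*. Their median was −0.27, or −0.45 without oocyte 87 and −0.18 without oocyte 79. *Nlrp14*, at a mean normalised count of 66627 in *Nlrp5* +/+, differed by −0.33. These paralogs are close copies, and how reads shared between copies were counted is not given in the sources used here.

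Few genes separated the genotypes oocyte by oocyte. In 31 genes (0.227%) every *Nlrp5* +/- oocyte lay above every *Nlrp5* +/+ oocyte, and in 49 (0.358%) every one lay below, together 0.585%. Both a 2-fold difference and no overlap were found in 7 genes upward (0.0512%) and 6 downward (0.0439%). These counts rest on few oocytes, and leaving out an oocyte relaxes the condition. The 31 became 48 without oocyte 48, 50 without 53, 57 without 70, 74 without 78, 72 without 79 and 192 without 87, and the 49 became 76 without 45, 79 without 53, 80 without 70, 120 without 78, 93 without 79 and 312 without 87. Scaling by total counts gave 20 and 65. Of all 80 genes, 1 was among the 164 staging markers.

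The 12 genes with an abundance of at least 100 and the largest upward difference without overlap differed by 1.43 to 2.03-fold. *Bet1l*, a SNARE protein of the Golgi, ranged from 93.1 to 224 with a median of 118 in *Nlrp5* +/-, and was at 64.9, 61.9, 71.4 and 66.8 in *Nlrp5* +/+ oocytes. Its 4 *Nlrp5* +/+ values lay close together and the log2 difference was 1.02. *Isoc2b* had a median of 216 in *Nlrp5* +/- and 118, 155, 59.6 and 96.1 in *Nlrp5* +/+ oocytes, a log2 difference of 1.01. *Zglp1*, a GATA-like zinc finger factor of the germline, had a median of 125 in *Nlrp5* +/- and 81.6, 42.2, 95.7 and 76.0 in *Nlrp5* +/+ oocytes, a log2 difference of 0.94. *Nhej1*, a factor of non-homologous end joining, differed by 0.90, and *C1qtnf12*, which encodes the secreted protein adipolin, by 0.88. *Slc10a4l* differed by 0.89. *Psme2*, a subunit of the proteasome activator PA28, differed by 0.76, and *Slc25a3*, the phosphate carrier of mitochondria, by 0.65. *Slc25a3* lay at 764 to 993 in *Nlrp5* +/- and 468, 595, 500 and 627 in *Nlrp5* +/+ oocytes. *Sgf29*, a subunit of the SAGA histone acetyltransferase complex, differed by 0.64, *Fam220a* by 0.56, *1700030K09Rik* by 0.54 and *Acot11*, an acyl-CoA thioesterase, by 0.52.

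The 12 genes with the largest downward difference without overlap differed by 1.55 to 2.20-fold. *Pramef17*, a member of the PRAME family of close copies, ranged from 51.3 to 203 with a median of 133 in *Nlrp5* +/- and was at 230, 401, 297 and 241 in *Nlrp5* +/+ oocytes, a log2 difference of −1.14. *Urb1* and *Noc3l*, whose products act in the nucleolus in the making of the large ribosomal subunit, both differed by −0.96, and *Noc3l* by −0.63 without oocyte 79. *Urb1* was at most 130 in *Nlrp5* +/- and at 166, 160, 263 and 236 in *Nlrp5* +/+ oocytes. *Jag1*, a ligand of Notch receptors, ranged from 1308 to 2856 with a median of 2211 in *Nlrp5* +/- and was at 4907, 3142, 4422 and 2895 in *Nlrp5* +/+ oocytes. The lowest *Nlrp5* +/+ value of *Jag1* lay just above the highest *Nlrp5* +/- value, and the log2 difference was −0.85. *Ubr4*, a ubiquitin ligase of the N-degron pathway, differed by −0.82, *Mtbp*, which acts in the start of DNA replication, by −0.78, *Zfp235* by −0.69 and *Gstcd* by −0.68. *Gm42906* had a narrow range in *Nlrp5* +/-, from 97.1 to 117, and was at 203, 164, 138 and 182 in *Nlrp5* +/+ oocytes, a log2 difference of −0.68. *Wdfy2*, an endosomal protein, and *Pdpr*, which regulates the pyruvate dehydrogenase phosphatase, both differed by −0.67, and *Nbr1*, a cargo receptor of autophagy, by −0.63, or −0.42 without oocyte 79. Spans of *Bet1l*, *Sgf29*, *1700030K09Rik*, *Acot11*, *Mtbp*, *Gstcd*, *Gm42906* and *Pdpr* overlap a measured gene on the opposite strand, and whether counting used the strand is not given in the sources used here. Those of *Zglp1*, *Ubr4*, *Bet1l* and *Gm42906* overlap a measured gene on the same strand, where counting by strand could not part the reads.

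In SN oocytes these genes showed small differences, and none separated the genotypes, which few genes did there at all: 0.0292% of genes lay above and 0.0439% below without overlap, so that no separation is what most genes show. The condition is also harder to meet with 7 against 6 oocytes than with 8 against 4, so these shares cannot be compared with those of NSN oocytes. Of the 12 upward genes 6 were higher in SN *Nlrp5* +/- oocytes as well, with log2 differences from −0.30 to 0.21, and 0 of 12 were without overlap. Of the 12 downward genes 9 were lower there too, from −0.46 for *Pramef17* to 0.38 for *Urb1*, again with 0 of 12 without overlap. *Bet1l* was at a mean of 49.3 ± 24.2 in SN *Nlrp5* +/- and 50.3 ± 12.3 in SN *Nlrp5* +/+ oocytes. *Jag1* turned, with 4155 ± 1405 against 3449 ± 1062. *Gm42906* had a narrow overlap, with 115 to 185 in *Nlrp5* +/- and 177 to 236 in *Nlrp5* +/+ oocytes, a log2 difference of −0.44. Over all genes, 25 of the 178 at least 2-fold higher in NSN oocytes were also 2-fold higher in SN oocytes, where 1.79% of genes were, and 107 lay above 0, as did 50.7% of genes. Of the 160 at least 2-fold lower, 11 were 2-fold lower in SN oocytes, where 1.02% of genes were, and 82 lay below 0, as did 49.3% of genes. A difference between the stages was not tested.

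**Figure D2:**
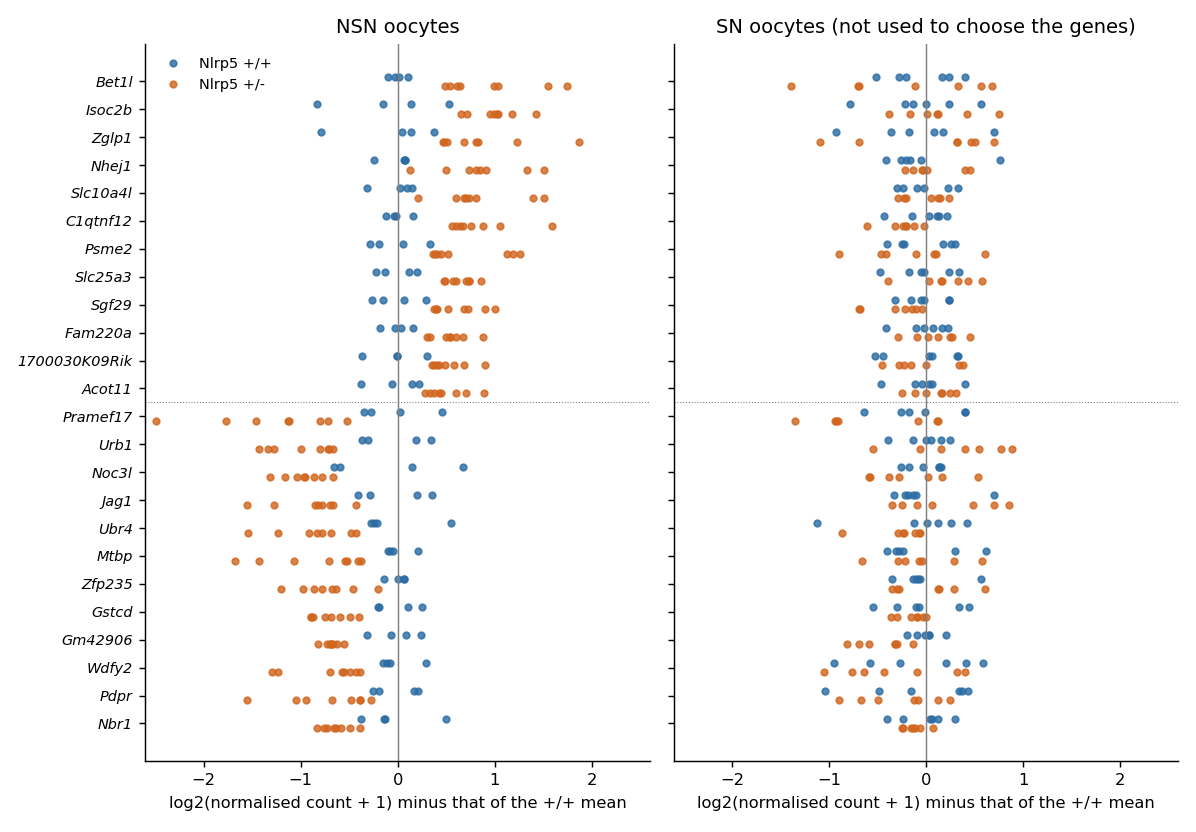
The 24 genes chosen for no overlap in NSN oocytes, as log2(normalised count + 1) of each oocyte minus that of the *Nlrp5* +/+ mean (points; *Nlrp5* +/+ blue, *Nlrp5* +/- orange; the dotted line parts upward from downward genes). The left panel shows the oocytes that chose them, so its separation is a result of the rule, and the right panel shows SN oocytes, in which all 24 overlap.

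Low-level genes of steroid hormone synthesis and of glutathione conjugation were described as lists, and their larger differences came from few members, some of which rested on few oocytes. Steroid hormones of the ovary are made from cholesterol in theca, interstitial and granulosa cells, by the steps that *Star*, *Cyp11a1*, *Hsd3b1* and *Cyp17a1* carry out in turn. Of 10 measured genes of steroid synthesis 2, *Hsd3b1* and *Cyp17a1*, were at least 2-fold higher (1.3% of all genes were) and 0 were 2-fold lower, and *Cyp17a1* passed the abundance minimum only through *Nlrp5* +/-. The list median was 0.43 in NSN oocytes, 0.26 without oocyte 54, and 0.36 in SN oocytes. *Hsd3b1*, a 3-beta-hydroxysteroid dehydrogenase, ranged from 16.9 to 510 with a median of 69.5 in *Nlrp5* +/- and was at 14.04, 12.2, 10.3 and 9.15 in *Nlrp5* +/+ oocytes. Every *Nlrp5* +/- oocyte lay above every *Nlrp5* +/+ oocyte, but oocyte 54 alone held 510 and the next held 99.2. The log2 difference was 3.20, and 2.21 without oocyte 54. In SN oocytes *Hsd3b1* again did not overlap, with 14.1 to 184 in *Nlrp5* +/- and 5.43 to 11.9 in *Nlrp5* +/+ oocytes, a log2 difference of 2.80. *Hsd3b6*, a close copy of *Hsd3b1*, differed by −0.25 in NSN oocytes.

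*Cyp17a1*, the enzyme that makes androgen precursors, had 0 counts in all 4 NSN *Nlrp5* +/+ libraries (36964425 counts in all) and 235 counts in 7 of the 8 *Nlrp5* +/- libraries. Against a floor of 3 counts over the *Nlrp5* +/+ libraries together, it was at least 49.8-fold higher in *Nlrp5* +/- in CPM. Oocyte 54 gave 185 of these counts, at a normalised count of 213, whereas the next oocyte was at 21.6, and without oocyte 54 it was at least 11.98-fold higher. In SN oocytes every *Nlrp5* +/- library held it, at 3.27 to 50.7, and the *Nlrp5* +/+ libraries were at 0 to 4.26. *Cyp11a1*, which cleaves the cholesterol side chain, was at 24.7 ± 13.3 (SD, n = 8) against 13.3 ± 7.90 (SD, n = 4), a log2 difference of 0.85 with overlap, or 2.71 with oocyte 61 added. *Star*, which brings cholesterol into mitochondria, overlapped widely in NSN oocytes, with a log2 difference of 0.38. It was 0.98 with oocyte 61 added, 0.20 without oocyte 70 and 0.67 without oocyte 79, whereas it was 2.37 in SN oocytes.

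Glutathione S-transferases join glutathione to reactive compounds. Of 15 measured genes 3 were at least 2-fold higher in *Nlrp5* +/- (against 1.3% of all genes), namely *Gstm1*, *Gstm2* and *Mgst1*, and 0 were 2-fold lower. The list median was 0.43 in NSN oocytes, 0.15 without oocyte 56, and 0.19 in SN oocytes. *Gstm1* and *Mgst1*, like *Cyp17a1* among the steroid genes, passed the abundance minimum only through their level in *Nlrp5* +/- and so had to differ, which leaves 1 of the 3 called transferases, *Gstm2*, and 1 of the 2 called steroid genes, *Hsd3b1*. The medians of the other members were 0.34 and 0.38. *Gstm1* ranged from 1.32 to 73.2 with a median of 27.5 in *Nlrp5* +/- and was at 0.67, 0, 0 and 2.75 in *Nlrp5* +/+ oocytes. Only oocyte 64, at 1.32, fell within the *Nlrp5* +/+ range. In pooled counts *Gstm1* stood at 4.13 CPM (exact Poisson 95% interval 3.62 to 4.68, 240 counts) against 0.108 CPM (0.0295 to 0.277, 4 counts), a ratio of 38.1. The level differed between index sets within *Nlrp5* +/-, with a mean of 11.9 in oocytes 45 and 48, 39.02 in 53, 54 and 56, and 45.6 in 62, 63 and 64, each above every *Nlrp5* +/+ oocyte. In SN oocytes *Gstm1* was at 0 to 37.6 with a median of 22.1 in *Nlrp5* +/- and at 0 to 5.30 in *Nlrp5* +/+, a log2 difference of 3.04.

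*Gstm2* and *Mgst1* rested more on single oocytes. *Gstm2* reached 118 in oocyte 63 and 72.4 in oocyte 62, which carried the same first index, while the other 6 *Nlrp5* +/- oocytes were within or near the *Nlrp5* +/+ range of 3.68 to 14.7. Its log2 difference was 1.53, or 0.83 without oocyte 63 and 0.17 with medians over oocytes. *Mgst1*, a microsomal transferase, had a log2 difference of 2.001, or 1.34 without oocyte 63. In SN oocytes *Gstm2* differed by 1.81 and *Mgst1* by 0.42, both with overlap. The abundant transferases of the oocyte differed less, with 0.58 for *Gstm5*, −0.05 for *Mgst3* and 0.34 for *Gstt2*. Genes of glutathione synthesis and redox control had a median of 0.16, or 0.054 without oocyte 70 and 0.048 relative to length, with 0 of 20 at 2-fold. Members of the *Gstm* family are close copies of one another, so the split of reads between them is uncertain.

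*Hsd3b1*, *Cyp17a1*, *Star* and *Cyp11a1* are expressed by somatic cells that surround follicles, so marker lists of those cells were summed in each library. In these single-oocyte libraries, fewer cells of a type and less RNA per cell cannot be told apart. Of 9 theca and interstitial markers, 8 were low in *Nlrp5* +/+ oocytes (a mean under 50), and these summed to 7.49 to 54.6 CPM in *Nlrp5* +/-, highest in oocyte 54, and to 4.57 to 7.63 CPM in *Nlrp5* +/+ oocytes. Of the 8, 7 differed upward and 4 by at least 2-fold, markers under the abundance minimum included. The list holds *Cyp17a1*, and without it 6 of 7 differed upward and 3 by at least 2-fold, and the sums were 6.35 to 27.2 CPM against 4.57 to 7.63 CPM. Among all 13797 genes with a count and a mean under 50 in *Nlrp5* +/+, 55.6% differed upward and 10.4% by at least 2-fold. *Aldh1a1*, the retinaldehyde dehydrogenase, was at 32.1 ± 44.5 against 2.66 ± 2.04, a log2 difference of 3.18, or 2.30 without oocyte 54, and it too passed the abundance minimum only through *Nlrp5* +/-. *Insl3*, which defines theca cells, was at 0 in all *Nlrp5* +/+ oocytes and at most 13.8 in *Nlrp5* +/-, and *Ptch1* ran the other way, at −0.94. With every member of the list included, the sums overlapped, at 11.7 to 57.1 CPM and 11.8 to 23.9 CPM. The members past the abundance minimum had a median log2 difference of 0.85. This median was −0.39 with libraries thinned to 4000000 counts and 2.71 with oocyte 61 added.

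Low granulosa markers also leaned upward, with sums that overlapped. All 17 together summed to 311 to 435 CPM in *Nlrp5* +/- and 285 to 476 CPM in *Nlrp5* +/+ oocytes, of which *Serpine2*, which is also high in oocytes, took most. The 13 low markers summed to 2.22 to 33.3 CPM in *Nlrp5* +/- and 7.63 to 13.4 CPM in *Nlrp5* +/+ oocytes, so the ranges overlapped. The mean sums were 16.7 and 10.3 CPM. Of these 13, 11 differed upward, 7 of them by at least 2-fold, and 2 downward. *Foxl2* and *Amh*, which define granulosa cells, were at 0 in all *Nlrp5* +/+ oocytes and reached at most 13.4 and 5.57 in *Nlrp5* +/- oocytes. *Fshr*, the follicle stimulating hormone receptor, was at 149 in oocyte 56 and at most 34.1 in the other *Nlrp5* +/- oocytes, and its log2 difference of 1.31 became 0.10 without oocyte 56. *Inhba*, an activin subunit, was lower, at 0 to 8.09 in *Nlrp5* +/- and 15.4, 10.3, 8.10 and 32.0 in *Nlrp5* +/+ oocytes, whereas in SN oocytes it differed by 0.96. *Inhba* passed the abundance minimum only through *Nlrp5* +/+, at a mean of 16.5 against 3.71 in *Nlrp5* +/-, and so had to differ. Low markers of stroma, vessels and blood summed to 3.05 to 20.4 CPM against 1.88 to 16.02 CPM, with 8 of 13 upward and 3 by at least 2-fold. *Acta2*, the smooth muscle actin in this list, which also passed the minimum only through *Nlrp5* +/-, differed by 1.61, and by 3.94 without *Nlrp5* +/+ oocyte 70, which held 29.4. Oocytes were freed by collagenase digestion, a step meant to limit carry-over of somatic cells. The part of such cells in the higher *Hsd3b1*, *Cyp17a1* and *Gstm1* levels was not tested.

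Across all genes the difference followed transcript length. Genes were ordered by their longest annotated transcript, which was found for 99.4% of them, and divided into 5 groups of equal size. The median log2 difference was 0.18 in the shortest group, with a median length of 1424 bases, then 0.13, 0.06 and −0.04, and −0.17 in the longest, with 7732 bases. In the shortest group 70.3% of genes were higher in *Nlrp5* +/-, in the longest 29.5%. Genes without overlap followed, with 8 above and 3 below in the shortest group and 2 above and 22 below in the longest. The oocytes were not alike in this. The median deviation of the longest minus that of the shortest group was 0.30, 0.19, 0.48 and −0.15 in *Nlrp5* +/+ oocytes 70, 78, 79 and 87, and ranged from −0.91 (oocyte 56) to 0.12 with a median of −0.03 in *Nlrp5* +/- oocytes. The contrast of −0.35 between the longest and shortest groups was −0.25 without oocyte 56 and −0.47 without oocyte 87. In SN oocytes the trend was weaker and ran the other way, from −0.09 in the shortest to 0.04 in the longest group.

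**Figure D3:**
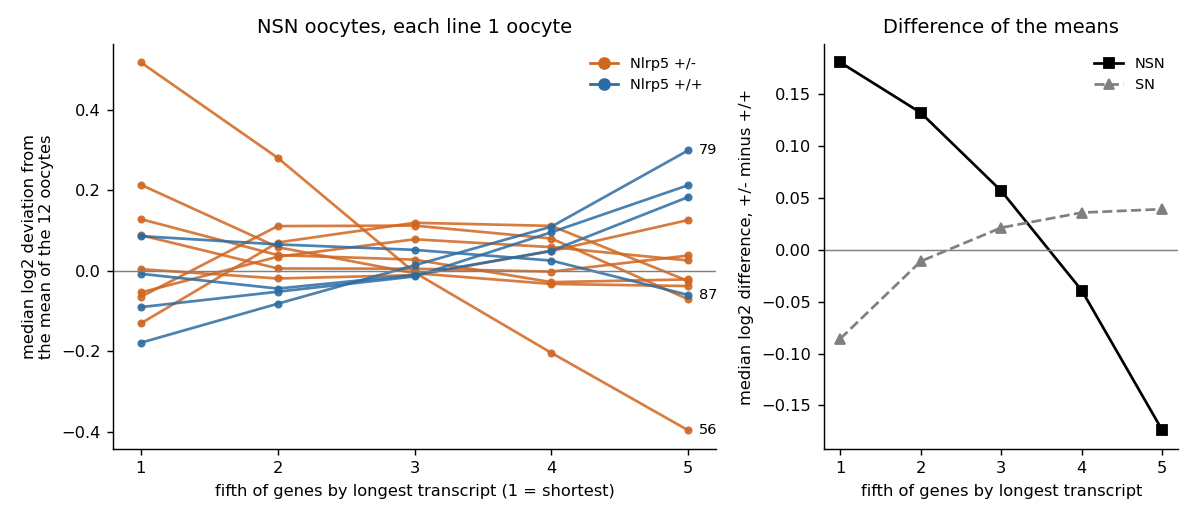
Differences by transcript length. Left, for each NSN oocyte (line), the median log2 deviation from the mean of the 12 oocytes in each of 5 equal groups of genes by longest transcript; *Nlrp5* +/- oocyte 56 falls from left to right, and *Nlrp5* +/+ oocytes 70, 78 and 79 rise while oocyte 87 does not. Right, the median log2 difference of *Nlrp5* +/- minus *Nlrp5* +/+ in the same groups, for NSN and SN oocytes.

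Lists for energy metabolism and protein turnover had medians above 0, which were smaller without oocyte 56 except in the mitochondrial genome. Subunits of the respiratory chain had a median log2 difference of 0.30, against 0.03 for all genes measured, with 82 of 88 higher in *Nlrp5* +/- and 0 at 2-fold. Proteasome subunits had a median of 0.21, with 32 of 38 higher, and only *Psmb11*, at 1.05, passed 2-fold, where 1.3% of all genes were 2-fold higher. This call was lost without oocyte 56, at 0.72. Without oocyte 87 *Psmb11* stood at 1.75. Cytoplasmic ribosomal proteins had a median of 0.14, with 66 of 81 higher and 0 at 2-fold. Relative to genes of like transcript length these medians were 0.17, 0.14 and −0.01, so that the shift of ribosomal proteins was no longer seen while the others kept part of theirs, and in SN oocytes −0.08, −0.08 and −0.01. Without oocyte 56 the medians were 0.17, 0.12 and −0.01, so the median of ribosomal proteins turned. In each of these lists the averages per oocyte overlapped between the genotypes. The 13 messenger RNAs of the mitochondrial genome had a median of 0.20, or 0.00 relative to length, and with 1 oocyte left out it lay between 0.0062 (without oocyte 45) and 0.38 (without oocyte 78). *mt-Atp8*, which shares part of its sequence with *mt-Atp6*, stood at 1.00, or 0.72 without oocyte 45 and 1.55 without oocyte 87. *mt-Atp8* passed the abundance minimum only through *Nlrp5* +/-, at a mean of 15.2 against 7.06, and so had to differ. Enzymes of glycolysis, whose median transcript length of 4227 bases is above the 4017 of all genes, had a median of 0.22, or 0.15 relative to length and 0.090 without oocyte 56, with 13 of 16 higher, among them *Ldhb*, the lactate dehydrogenase subunit of the oocyte, at 0.62.

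Chromatin genes lay on the other side. Of 24 measured histone modifiers 20 were lower and 0 were 2-fold lower, with a median of −0.28, which was −0.17 relative to length and 0.01 in SN oocytes. *Kdm6a*, a demethylase of lysine 27 of histone H3, differed by −0.66, *Setd2*, which trimethylates lysine 36, by −0.41, and *Kdm5b* by 0.48. Genes of DNA methylation had a median of −0.28, with 9 of 14 lower and 0 at 2-fold. The maintenance genes *Dnmt1* and *Uhrf1* differed by −0.40 and −0.43, the *de novo* methyltransferase *Dnmt3a* by −0.21, and the demethylase *Tet3* by −0.39. Upward differences in the same list were 0.51 for *Dnmt3l*, the cofactor of DNMT3A, and 0.44 for *Dppa3*, which protects the maternal genome from demethylation. Relative to length the list median was −0.14, and in SN oocytes it was 0.04, with −0.05 for *Dnmt1*, 0.00 for *Uhrf1* and 0.09 for *Dnmt3l*. Of 12 measured imprinted genes 1 passed 2-fold, where 1.17% of all genes were 2-fold lower. It was the non-coding RNA *Kcnq1ot1*, at −1.23, whereas in SN oocytes *Kcnq1ot1* differed by 0.48. It was at 765 in *Nlrp5* +/+ oocyte 79 and at 513 in *Nlrp5* +/- oocyte 64, and its difference was −0.03 without oocyte 79 and −2.14 without oocyte 64. The span of *Kcnq1ot1* overlaps the measured gene *Kcnq1* on the opposite strand, and whether counting used the strand is not given.

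Genes of oocyte growth and meiosis showed small differences of both signs. With 1 oocyte left out, the medians of 10 of the 29 lists drawn took both signs, among them oocyte transcription factors, cohesin genes, heat shock proteins and cholesterol synthesis. Growth factors and *Kit* had a median of −0.05, with 0.39 for *Gdf9* and −0.16 for *Bmp15*, the paired growth factors of the oocyte. Zona pellucida and sperm-binding genes had a median of 0.30, with 0.61 for *Zp1*, 0.56 for *Zp3* and −0.05 for *Zp2*, and the list stood at 0.14 relative to length. Oocyte transcription factors had a median of 0.07, with 0.07 for *Nobox*, 0.38 for *Figla* and −0.46 for *Sall4*. Among genes of meiotic arrest and resumption the median was 0.11, or 0.020 without oocyte 48 and 0.024 relative to length, and *Cdc20*, an activator of the anaphase-promoting complex, differed by 0.71. *Wee2*, the kinase that keeps CDK1 inactive, was the only member of that list without overlap, at −0.26, where 0.358% of all genes lay below without overlap. In SN oocytes *Wee2* overlapped, at −0.02. Cohesin and checkpoint genes had a median of −0.08, maternal mRNA storage and decay −0.12, *Dppa* and genome activation genes −0.12, calcium stores and channels −0.15, kinesins −0.12, actin regulators 0.19, heat shock proteins 0.03, cholesterol synthesis 0.03, connexins 0.06 and the BCL2 family 0.05. Relative to length the medians of calcium stores, kinesins and actin regulators were −0.056, −0.036 and 0.078. Without oocyte 70 the calcium median was −0.018, and the kinesin median was −0.039 without oocyte 79 and −0.22 without oocyte 87. In all of these lists 0 genes passed 2-fold, apart from *Tmsb4x* among the actin regulators, at 1.46, or 0.54 without oocyte 63. *Tmsb4x* passed the abundance minimum only through *Nlrp5* +/-, at a mean of 27.8 against 9.45, and so had to differ. Over all genes 1.3% were 2-fold higher. Of 294 measured *Zfp* zinc finger genes 3 were 2-fold higher and 5 were 2-fold lower, near the shares over all genes. *Zfp808* (2.09) passed the abundance minimum only through *Nlrp5* +/- and *Zfp202* (−3.01) only through *Nlrp5* +/+. The median of the *Zfp* list was −0.07, or −0.16 without oocyte 87 and −0.003 without oocyte 79. Transcripts of 22 proteins that the study names in *Nlrp5* -/- oocytes had a median of −0.08, or −0.13 without oocyte 70, with 0 at 2-fold.

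**Figure D4:**
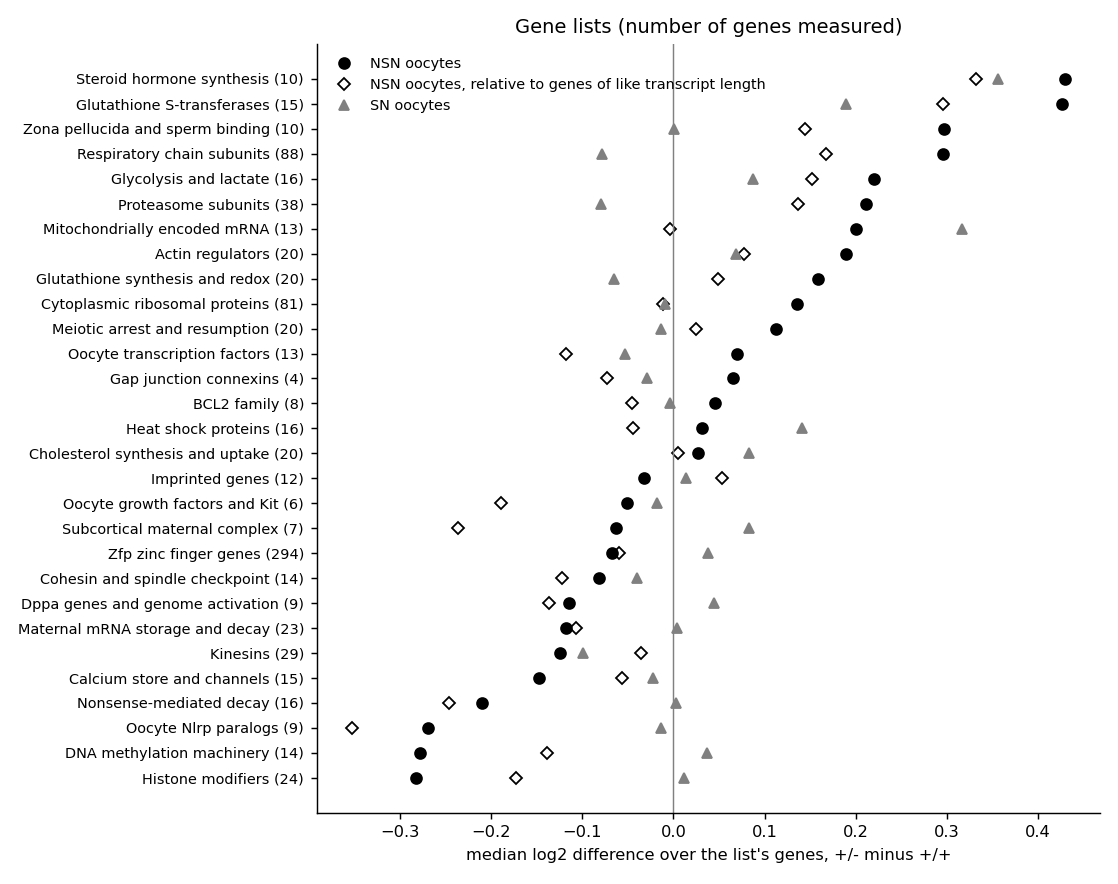
Median log2 difference of *Nlrp5* +/- minus *Nlrp5* +/+ over the measured genes of 29 lists, marker lists left out (number of genes in brackets), in NSN oocytes (filled circles), in NSN oocytes relative to genes of like transcript length (open diamonds) and in SN oocytes (grey triangles). Steroid synthesis and glutathione S-transferases, both at 0.43 with members that passed the minimum only through *Nlrp5* +/-, stood highest of the lists drawn and histone modifiers, at −0.28, lowest, but the transferases stood at 0.15 without oocyte 56. Relative to length the oocyte *Nlrp* paralogs stood lowest, at −0.35. Without oocyte 87 these paralogs were at −0.45 and histone modifiers at −0.35.

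A further 15 genes with an abundance of at least 100 were past 2-fold with overlap between the genotypes. These genes were singled out after their values had been seen. With each oocyte left out in turn, all kept their sign, *Crip2*, *Gm43263* and *Lars2* stayed past 2-fold, and *Gpd2*, *Nfkbiz*, *Ttn*, *Vps13c* and *Xlr3c* came under 0.7 on the log2 scale without some oocyte. *Lars2*, a mitochondrial leucyl-tRNA synthetase, was at 273 to 1686 with a median of 732 in *Nlrp5* +/- and at 3016, 3203, 14559 and 615 in *Nlrp5* +/+ oocytes, a log2 difference of −2.67, or −1.44 without oocyte 79. *Ttn*, which encodes titin and is among the longest transcripts known, was at 777 to 2756 in *Nlrp5* +/- and at 2460, 2064, 6879 and 732 in *Nlrp5* +/+ oocytes, and its difference of −1.17 was −0.38 without oocyte 79. *Xlr3c*, an X-linked gene with close copies, differed by −1.62 and by −0.53 without oocyte 78. In *Lars2*, *Ttn* and *Vps13c*, at −1.25, oocyte 79 was highest and oocyte 87 lowest of the *Nlrp5* +/+ oocytes. *Atp7a*, the copper transporter, was more even, at 306 to 742 in *Nlrp5* +/+ and 62.1 to 348 in *Nlrp5* +/- oocytes, a log2 difference of −1.29. Of the upward genes *Crip2*, a LIM domain protein, differed by 1.44, *Akr1cl* by 1.19, *Haus7*, an augmin subunit of the spindle, by 1.16 and *Chchd10*, a protein of mitochondrial cristae, by 1.03. *Crip2* was at 96.5 to 291 in *Nlrp5* +/- and at 24.7, 60.0, 108 and 62.2 in *Nlrp5* +/+ oocytes, so that only oocyte 79 reached into the *Nlrp5* +/- range. In SN oocytes *Crip2* differed by 0.09, *Atp7a* by −0.28 and *Lars2* by −0.91.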

How the data were processed

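RNA of single GV oocytes was amplified with a Smart-seq2-based protocol, made into Nextera XT libraries and sequenced on a NextSeq 500. According to the methods and the submitters' processing notes, Trim Galore served for trimming and HISAT2 for alignment to GRCm38, the build carried by the column names, although the methods also name GRCm39. The authors deposited raw read counts per gene and oocyte. The counting tool and whether it used strand are not given in the sources used here. Tables of the authors' own comparisons, which hold DESeq2 fold changes and p-values, were not used, nor was a list of read totals.

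The table has 35373 entries. For gene identifiers listed more than once the entry with the most counts was kept, which dropped 52. Size factors were medians of ratios over the 12 oocytes. Levels are means of normalised counts over oocytes, differences are log2(mean + 1), and genes needed an abundance of at least 10. Called means at least 2-fold or no overlap between oocytes. Pooled CPM carry exact Poisson 95% intervals. SN oocytes were scaled separately. Named genes were *Nlrp5*, members of the gene lists and, among genes of an abundance of at least 100 without overlap, the 12 largest differences in each direction. Genes, lists and members were chosen with earlier results of these data known. Values relative to transcript length are differences minus the median of genes of like length, in 20 groups. Alternatives changed the scaling, the average, the pseudocount, the filter, the depth and the oocytes. The scripts were tested on simulated data. Python 3.11.15, numpy 2.4.6, pandas 2.3.3 and scipy 1.17.1 were used.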

Additional observations from a re-analysis of the deposited data

Results flagged for a closer look

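Of 131 groups of 4 or 8 oocytes that were searched by Dixon's ratio for an oocyte far from the others, 20 held one (15.3%), where chance gives about 1 in 20 for independent groups of normally distributed values. That rate does not hold here as a yardstick: the groups covered 59 genes, many of them named for large differences in these oocytes, and 7 summary measures, and they share the same 12 oocytes.

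*Nlrp5* +/- oocyte 56 stood apart in 6 measures. It was highest in *Zglp1* (normalised count 273), *C1qtnf12* (796), *Psmb11* (176), *Fshr* (149) and *Khdc3* (14501), and lowest in the deviation of long minus short transcripts (−0.91). *Nlrp5* +/- oocyte 54 was highest in *Hsd3b1* (510.3), *Cyp17a1* (213), *Aldh1a1* (138) and the sum of theca and interstitial markers (57.1 CPM). *Nlrp5* +/- oocyte 63 was highest in *Mgst1* (113) and *Tmsb4x* (123), and *Nlrp5* +/- oocyte 64 in *Kcnq1ot1* (513).

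*Nlrp5* +/+ oocyte 70 was lowest in *Nhej1* (322) and in the sum of oocyte markers (20153 CPM), and highest in *Mtbp* (149) and *Acta2* (29.4). *Nlrp5* +/+ oocyte 79 was highest in *Ubr4* (1957) and *Wdfy2* (229.8), and *Nlrp5* +/+ oocyte 87 was highest in *Nfkbiz* (573).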

How the results depend on the processing

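The log2 difference of *Nlrp5* lay between −1.12 and −0.59 under every alternative run, and no named gene past 2-fold or without overlap changed sign. The number of genes past 2-fold depended on how low levels were handled. It was 96 higher and 83 lower with a pseudocount of 5, 1444 and 1154 with no filter, 10 and 9 at an abundance of at least 100, 103 and 72 with libraries thinned to 4000000 counts, and 266 lower with medians over oocytes. Leaving out 1 oocyte gave 187 to 338 higher and 154 to 246 lower. Genes without overlap numbered 20 higher with total counts, and 41 to 192 higher and 57 to 312 lower with 1 oocyte left out, a condition that fewer oocytes meet more easily. List medians moved by more than the spread between oocytes for growth factors (−0.15 with medians over oocytes, −0.19 relative to length), stroma markers (1.81 with medians over oocytes, 0.019 to 2.05 with 1 oocyte left out), granulosa markers (0.64 with no filter), theca markers (2.71 with oocyte 61, −0.39 thinned), oocyte transcription factors (−0.12 relative to length), DNA methylation genes (−0.14 relative to length), oocyte markers (0.18 relative to length) and the subcortical maternal complex (−0.14 to 0.13 with 1 oocyte left out). The mean correlation between oocytes of different genotypes was 0.948 with no filter and 0.940 by Spearman. The cause was not tested for any of these. The values relative to length, the counts without overlap and the longest minus shortest contrast were chosen after the data were seen. No paired analysis was possible because each oocyte has its own number and replicate numbers only follow accession order. Depth limits genes under about 10 normalised counts most, such as *Gstm1* in *Nlrp5* +/+ with 4 counts in all.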
